A study of Mus musculus with 12 samples.

Results

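The genes described here are 8 markers of cardiac wall stress and of the fetal gene program of the heart: Nppa, Nppb, Npr3, Acta1, Ankrd1, Myh6, Myh7 and Rcan1. They were taken by gene symbol from a table of 33615 symbols, and all 8 were among the 15952 genes with enough counts to be tested. Their levels were followed in frozen heart tissue of mice in 12 bulk RNA libraries, 4 in each of 3 groups. The first group (I/R + ML264) had 30 min of ischemia followed by 2 h of reperfusion and was treated with ML264, a small molecule that the study used to inhibit the transcription factor KLF5. The second group (I/R) had the same ischemia and reperfusion without ML264, and the third (Sham) had a sham operation and carries the same 2 h label. The labels give no strain, age, sex, vehicle, ML264 dose or heart region, and nothing in them ties a library to an animal of its own. The p-values therefore measure the spread between these libraries, which may be technical in part.

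A heart under load returns in part to the gene set of the fetal ventricle. Stretched cardiomyocytes release the natriuretic peptides ANP and BNP, encoded by Nppa and Nppb, which act through guanylyl cyclase receptors to lower blood volume and pressure, and Npr3 encodes the receptor that clears both peptides. The fetal ventricle of the mouse also uses the slow beta myosin heavy chain (Myh7) and skeletal alpha-actin (Acta1), which give way after birth to the fast alpha myosin heavy chain (Myh6) and cardiac alpha-actin. Ankrd1 encodes CARP, a titin-bound protein of the sarcomere that also enters the nucleus, and Rcan1 encodes an inhibitor of the calcium-dependent phosphatase calcineurin. Calcineurin activates the NFAT transcription factors, and the short form of Rcan1, made from an internal first exon, is a known NFAT target.

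Library depth was 22.26 to 29.93 M (mega) estimated counts, of which 35.24% to 41.13% came from mitochondrially encoded genes. The libraries differed in 2 further ways, neither of them balanced over the groups. Ddx3y, a gene of the Y chromosome, was at 38.8 to 52.0 CPM (counts per 1 M of library total, scaled with TMM factors) in 8 libraries and at 0.106 to 0.484 CPM in I/R + ML264 libraries 1 and 2 and I/R libraries 1 and 4. Arntl, a core clock gene, was at 11.1 CPM in I/R library 1 and at 10.4 and 15.3 CPM in Sham libraries 2 and 3, against 1.05 to 3.26 CPM in the other 9. All 4 Sham libraries had Ddx3y, so its absence goes in part with ischemia and reperfusion, and the 2 cannot be fully told apart. Calls lost when Ddx3y or Arntl was a covariate, or when the 8 libraries with Y-linked transcripts were fitted alone, are named beside each called gene. The fit on these 8 rests on 2 libraries in each of the I/R + ML264 and I/R groups (3 and 4, and 2 and 3). Cardiomyocyte markers summed to 82600 to 89200 CPM in I/R + ML264 hearts, 81000 to 92300 CPM in I/R hearts and 76100 to 87400 CPM in Sham hearts, with all 10 detected. Of the atrial markers, Sln was at 0 in all 12 libraries and Myl7 was at 0.213 CPM in I/R + ML264 library 1 and at 0 in the rest. The other atrial markers were detected and are described with Nppa below.

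To show the sequence from which these genes are transcribed, the 300 bases around the RefSeq transcription start (250 before it and 50 from it onwards, GRCm38.p6) were searched on both strands for words bound by factors of the cardiac stress response. All 8 members had a window, and Myh7 and Rcan1 had 2 each. The words were TATAAA (the core promoter box, in 13.62% of the 32851 windows of all genes), CATTCC (the M-CAT site of TEAD factors, 14.66%), TGATAA (a site of GATA factors, 9.05%), GGAAAA (the NFAT core, 23.36%), TGACTCA (AP-1, 5.2%), TGACGTCA (CRE, 1.79%) and the CArG box of SRF (1.63%). No 2 matches overlapped. The windows of both natriuretic peptides, of the actin and of Ankrd1 are shown as those of the classical stress genes, and both windows of Rcan1 are shown because its 2 start sites decide which form is made. Each is written 5′ to 3′ on the strand of the gene, and capitals mark the matched words.
Nppa, chr4:148000472-148000771, plus strand: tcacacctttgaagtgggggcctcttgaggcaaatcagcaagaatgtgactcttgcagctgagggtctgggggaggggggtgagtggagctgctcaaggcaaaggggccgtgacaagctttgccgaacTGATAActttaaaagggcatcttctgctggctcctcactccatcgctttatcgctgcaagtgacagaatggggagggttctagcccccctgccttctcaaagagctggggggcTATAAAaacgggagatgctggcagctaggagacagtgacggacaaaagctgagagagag
Nppb, chr4:147985650-147985949, plus strand: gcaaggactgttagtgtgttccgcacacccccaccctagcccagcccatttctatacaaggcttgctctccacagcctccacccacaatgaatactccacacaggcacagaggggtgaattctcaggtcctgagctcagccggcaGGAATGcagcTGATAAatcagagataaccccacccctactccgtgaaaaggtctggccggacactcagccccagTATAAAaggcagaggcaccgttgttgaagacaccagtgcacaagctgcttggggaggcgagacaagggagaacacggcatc
Acta1, chr8:123894726-123895025, minus strand: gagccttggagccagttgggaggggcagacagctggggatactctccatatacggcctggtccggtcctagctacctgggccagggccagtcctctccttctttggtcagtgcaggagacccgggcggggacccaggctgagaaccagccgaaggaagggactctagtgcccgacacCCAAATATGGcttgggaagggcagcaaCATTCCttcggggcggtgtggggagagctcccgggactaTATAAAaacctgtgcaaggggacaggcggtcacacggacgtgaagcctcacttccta
Ankrd1, chr19:36119795-36120094, minus strand: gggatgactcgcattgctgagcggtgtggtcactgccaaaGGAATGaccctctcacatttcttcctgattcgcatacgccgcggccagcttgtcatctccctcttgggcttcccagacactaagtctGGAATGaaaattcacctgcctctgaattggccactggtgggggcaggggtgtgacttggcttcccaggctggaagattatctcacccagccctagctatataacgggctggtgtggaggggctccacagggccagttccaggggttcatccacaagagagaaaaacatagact
Rcan1 (internal), chr16:92400029-92400328, minus strand: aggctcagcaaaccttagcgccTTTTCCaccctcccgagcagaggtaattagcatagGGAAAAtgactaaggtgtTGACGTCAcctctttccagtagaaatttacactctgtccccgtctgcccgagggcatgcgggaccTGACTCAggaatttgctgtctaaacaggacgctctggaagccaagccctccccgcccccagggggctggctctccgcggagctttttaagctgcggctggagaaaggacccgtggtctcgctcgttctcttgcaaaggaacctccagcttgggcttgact
Rcan1 (upstream), chr16:92466120-92466419, minus strand: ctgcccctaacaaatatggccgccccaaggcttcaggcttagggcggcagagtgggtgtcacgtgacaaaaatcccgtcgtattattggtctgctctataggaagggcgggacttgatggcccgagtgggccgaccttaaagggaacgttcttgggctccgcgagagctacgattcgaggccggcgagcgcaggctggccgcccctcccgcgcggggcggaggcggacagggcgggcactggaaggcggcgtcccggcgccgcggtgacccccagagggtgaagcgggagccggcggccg

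The Nppa window held a core promoter box at -9 and a GATA-factor word at -122, each counted to the first base of the word. Bases before the RefSeq start are negative, the start itself is the first positive base, and no base is numbered 0. The Nppb window held a core promoter box at -31, a GATA-factor word at -95 and an M-CAT word at -105. In Acta1 the words lay in the order CArG at -73, M-CAT at -46 and the core promoter box at -7, and Ankrd1 held M-CAT words at -210 and -123. The internal start of Rcan1 was the only one of the 10 windows with an NFAT, AP-1 or CRE word: NFAT at -228 and -193, CRE at -175 and AP-1 at -110. The upstream Rcan1 start, Npr3 and the downstream Myh7 start held none of these words. Myh6 held M-CAT at -206 and the core promoter box at 2, and the further upstream Myh7 start held M-CAT at -201. A match describes letters in the window and is not a measured binding site. The distances also depend on the annotated start, which was not measured here. For Myh6, on the minus strand, the RefSeq start was base 54966607, and the gene in GENCODE M21 begins at base 54966927. Among the windows shown, these bases were 36119844 and 36120099 for Ankrd1 (minus strand) and 147985900 and 147985788 for Nppb (plus strand). The annotations differed for some other members as well.

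**Figure D1:**
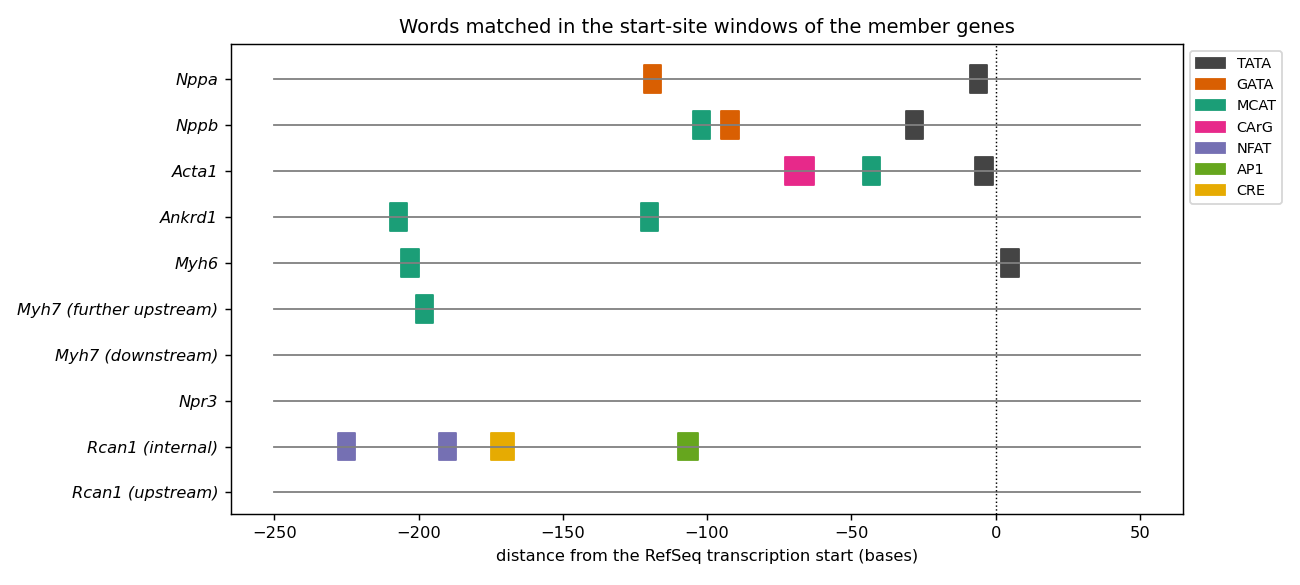
Words matched in the RefSeq start windows of the 8 genes. The x axis is the distance from the annotated transcription start in bases, each grey line is 1 window of 300 bases, and each coloured box is a match to 1 of the 7 words on either strand (MCAT is the M-CAT word and TATA the core promoter box). The internal Rcan1 window carries NFAT, CRE and AP-1 words, and 3 windows carry none.

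None of the 8 genes passed the test in any of the 3 comparisons (edgeR quasi-likelihood test, Benjamini-Hochberg adjusted p under 0.05 over 15952 genes). In I/R against Sham, where the background of called genes was 7.75%, 0 of 8 members were called. This background came from 1236 called genes, with 731 higher and 505 lower in I/R hearts, a split that upper-quartile scaling turned to 620 higher and 676 lower. The comparison of I/R + ML264 with I/R called 0 of 8 members beside a background of 0.0502%, and that of I/R + ML264 with Sham 0 of 8 beside 0.288%. At an unadjusted p under 0.05, edgeR listed 2 members in each comparison: Ankrd1 and Rcan1 in I/R against Sham, Myh7 and Rcan1 in I/R + ML264 against I/R, and Acta1 and Myh7 in I/R + ML264 against Sham. In the same order edgeR listed 3698, 1659 and 2074 of all 15952 genes at this threshold. The edgeR share of the members was thus near that of all genes in I/R against Sham. It was above it in the other 2 comparisons, a difference that was not tested. DESeq2 also called 0 in each, with 4, 3 and 3 members at an unadjusted p under 0.05 in the same order of comparisons. Of all 15933 genes in DESeq2, 3770, 1730 and 2130 were under this threshold. The levels of the groups overlapped for every member in every comparison, whereas 15.8%, 5.62% and 7.37% of all genes tested had groups that did not overlap. The median log2 fold change of the members was 0.07 in I/R against Sham, -0.19 in I/R + ML264 against I/R and 0.02 in I/R + ML264 against Sham, and that of all genes tested was within 0.0019 of 0 in each.

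**Figure D2:**
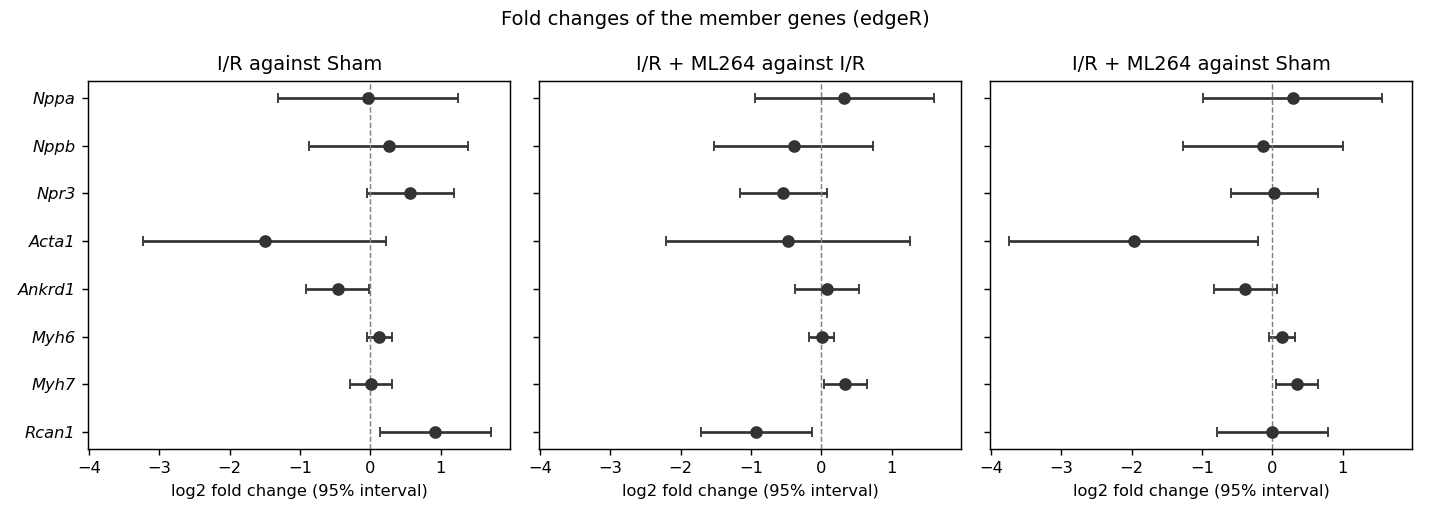
Log2 fold change (x axis) of the 8 genes with its 95% interval from edgeR, in 1 panel for each of the 3 comparisons. The intervals of Acta1 are the widest and those of Myh6 the narrowest, and no member passed the adjusted threshold in any panel.

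Per kilobase of their longest coding transcript, the members differed widely in level. In I/R + ML264 hearts Myh6 averaged 1881 ± 138 CPM per kb, Ankrd1 103 ± 21.7, Myh7 55.3 ± 8.57, Nppa 14.1 ± 7.89, Acta1 13.2 ± 7.91, Rcan1 9.11 ± 3.47, Nppb 8.09 ± 4.29 and Npr3 1.37 ± 0.407 (SD, n = 4). In Sham hearts the order began in the same way with Myh6 at 1712 ± 142 and Ankrd1 at 135 ± 27.1 CPM per kb, but Acta1 followed at 51.7 ± 39.3 beside Myh7 at 43.4 ± 4.59. Myh6, Ankrd1 and Npr3 stood apart from their neighbours in this order by more than their SDs in both groups. Each pair among Nppa, Nppb and Rcan1 differed by less than the larger SD of the pair. They were at 11.5 ± 4.57, 8.89 ± 5.45 and 9.10 ± 1.42 CPM per kb in Sham hearts.

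Nppa (chr4:148000722-148002079, plus strand, GRCm38) is the gene of ANP, which in the adult heart is made mainly in the atria. Nppa was at 6.28, 21.7, 8.37 and 12.3 CPM in I/R + ML264 libraries 1 to 4, at 7.62, 21.1, 5.23 and 4.94 CPM in I/R libraries and at 9.05, 5.47, 10.3 and 15.0 CPM in Sham libraries. Library 2 was the highest of its group in both I/R + ML264 and I/R hearts and the lowest in Sham hearts, and the 3 groups overlapped over most of their range. The mean was 12.2 ± 6.83 CPM in I/R + ML264 hearts, 9.73 ± 7.69 CPM in I/R hearts and 9.96 ± 3.96 CPM in Sham hearts (SD, n = 4). For Nppa the log2 fold change was -0.04 ± 0.57 (SE) in I/R against Sham, with an adjusted p of 0.979 and a 95% interval of the fold from 0.401 to 2.37. Without I/R library 2 it was -0.75 (adjusted p = 0.401), and over the 8 libraries with Y-linked transcripts 0.40. With ML264 set against I/R it was 0.33 ± 0.57 (adjusted p = 0.886), -0.11 without I/R + ML264 library 2 and -0.35 over the libraries with Y-linked transcripts. The value for I/R + ML264 against Sham was 0.29 ± 0.57 (adjusted p = 0.872). At 130 to 672 estimated counts per library, counting error was small beside this spread.

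Atrial tissue in a sample would bring Nppa with it. The 6 atrial markers summed to 10.4 to 11.3 CPM in I/R + ML264 hearts, 8.97 to 11.6 CPM in I/R hearts and 8.78 to 10.8 CPM in Sham hearts, and most of this was Gja5, which endothelium also expresses. In library 2 of I/R + ML264 and library 2 of I/R, which held the most Nppa, Sln and Myl7 were at 0. Bmp10 was at 0.0323 and 0.157 CPM in these libraries, at 0.142 CPM in I/R + ML264 library 1 and at 0 in the rest. Dkk3 was at 2.78 and 1.14 CPM in them, beside 0.273 to 1.74 CPM in the others. Myl4 was at 0.258 and 0.0393 CPM, beside 0.117 to 0.81 CPM in the others. Whether differences in dissection set the spread of Nppa was not tested beyond these values. In bulk tissue, fewer cells of a type and less RNA per cell cannot be told apart, for this and for every gene below.

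Nppb, the gene of BNP, lies beside Nppa on chromosome 4 (chr4:147985788-147987205, plus strand). Nppb was at 11, 3.07, 6.12 and 5.12 CPM in I/R + ML264 libraries 1 to 4, at 6.04, 10.3, 6.19 and 10.6 CPM in I/R libraries and at 10.8, 2.72, 3.86 and 10.4 CPM in Sham libraries. I/R + ML264 and Sham hearts both held libraries near the bottom and near the top of the range, and no I/R library was under 6.04 CPM. The means were 6.32 ± 3.35 CPM in I/R + ML264 hearts, 8.28 ± 2.50 CPM in I/R hearts and 6.94 ± 4.25 CPM in Sham hearts. Nppb had log2 fold changes of 0.26 ± 0.51 in I/R against Sham (adjusted p = 0.812), -0.39 ± 0.51 in ML264-treated hearts against I/R (adjusted p = 0.839) and -0.13 ± 0.51 in I/R + ML264 against Sham (adjusted p = 0.941). For I/R against Sham the 95% interval of the fold ran from 0.547 to 2.62. A 2-fold rise in BNP transcript was inside this interval, and a 2-fold fall was just outside it. The peptides did not keep a fixed ratio: I/R + ML264 library 2 was the highest of its group in Nppa and the lowest in Nppb.

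Npr3 (chr15:11839896-11907287, minus strand) encodes the clearance receptor, which in the heart is a gene of endocardial cells. Npr3 was at 6.14, 10.6, 12.7 and 8.47 CPM in I/R + ML264 libraries 1 to 4, at 8.20, 11.4, 21.8 and 13.7 CPM in I/R libraries and at 10.8, 7.32, 8.93 and 10.1 CPM in Sham libraries. I/R library 3 was the highest of the 12, and 3 of the 4 I/R libraries lay above every Sham library. The mean was 9.47 ± 2.81 CPM in I/R + ML264 hearts, 13.8 ± 5.80 CPM in I/R hearts and 9.29 ± 1.53 CPM in Sham hearts. For Npr3 it came to a log2 fold change of 0.57 ± 0.28 in I/R against Sham (adjusted p = 0.253), 0.26 without I/R library 3, and 0.84 over the libraries with Y-linked transcripts (adjusted p = 0.12). With ML264 set against I/R it was -0.54 ± 0.28 (adjusted p = 0.539), -0.23 without I/R library 3, and in I/R + ML264 against Sham 0.03 ± 0.29 (adjusted p = 0.977). The 4 endocardial markers, all detected, summed to 4.60 to 5.84 CPM in I/R + ML264 hearts, 6.01 to 7.86 CPM in I/R hearts and 3.37 to 6.83 CPM in Sham hearts, so this sum and Npr3 were both highest on average in I/R hearts. The part of endocardial content in the Npr3 values was not tested.

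Among the other genes of the natriuretic peptide system, from the processing enzymes to the phosphodiesterases, 0 of 10 tested were called in each comparison. Of all genes tested, 7.75% were called in I/R against Sham, 0.0502% in I/R + ML264 against I/R and 0.288% in I/R + ML264 against Sham. Beside these shares, 0 of 10 does not set the list apart from other genes. The median log2 fold change of the list was 0.07 in I/R against Sham. Corin, the protease that activates pro-ANP, is named here after its values were seen. Corin averaged 144 ± 29.9 CPM in I/R + ML264 hearts, 126 ± 5.17 CPM in I/R hearts and 97.8 ± 8.66 CPM in Sham hearts. Its log2 fold changes were 0.37 ± 0.12 in I/R against Sham (adjusted p = 0.0621) and 0.56 ± 0.12 in I/R + ML264 against Sham (adjusted p = 0.0564), both short of the threshold. Npr1, the guanylyl cyclase receptor of both peptides, also named after its values were seen, was at 6.10 ± 1.89, 5.68 ± 0.583 and 7.09 ± 0.932 CPM in I/R + ML264, I/R and Sham hearts. Of the 2 list members not tested, Nppc was at 0 CPM on average in I/R + ML264 hearts and Ostn at 0.223 CPM.

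Acta1 (chr8:123891769-123894751, minus strand), the gene of skeletal alpha-actin, varied most among the members, over a 27.4-fold range in the 12 libraries. Acta1 was at 19.6, 4.84, 19.2 and 32.9 CPM in I/R + ML264 libraries 1 to 4, at 7.95, 23.4, 34.9 and 39.2 CPM in I/R libraries and at 114, 31, 21.3 and 133 CPM in Sham libraries. Sham libraries 1 and 4 stood far above the other 10, while Sham libraries 2 and 3 lay within the range of I/R hearts. The mean was 19.1 ± 11.4 CPM in I/R + ML264 hearts, 26.3 ± 14.0 CPM in I/R hearts and 74.7 ± 56.8 CPM in Sham hearts. Acta1 had a log2 fold change of -1.50 ± 0.77 in I/R against Sham (adjusted p = 0.282), with a 95% interval of the fold from 0.106 to 1.17. It was -1.23 without Sham library 1 (adjusted p = 0.445) and -1.07 without Sham library 4 (adjusted p = 0.52). With Arntl as a covariate it was -2.44, with an adjusted p of 0.0549, the smallest of any member in any setting. The I/R + ML264 hearts gave -1.97 ± 0.78 against Sham (adjusted p = 0.327) and -0.47 ± 0.77 against I/R (adjusted p = 0.875).

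Skeletal muscle tissue is another source of Acta1. The 8 skeletal muscle markers summed to 0.353 to 1.05 CPM in I/R + ML264 hearts, 0.563 to 0.786 CPM in I/R hearts and 0.226 to 0.729 CPM in Sham hearts, with Pvalb at 0 in all 12 libraries. Sham libraries 1 and 4, which held the most Acta1, had 0.226 and 0.528 CPM of these markers. Of the 31-base words of Acta1 transcripts, 4.1% also occur in transcripts of other genes, mainly Actb.

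Ankrd1 (chr19:36111961-36120099, minus strand) was at 271, 189, 170 and 207 CPM in I/R + ML264 libraries 1 to 4, at 174, 221, 144 and 251 CPM in I/R libraries and at 291, 217, 242 and 341 CPM in Sham libraries. Sham libraries 1 and 4 were again the highest 2 of the 12, and I/R libraries 1 and 3 were under every Sham library. The means were 209 ± 43.8 CPM in I/R + ML264 hearts, 197 ± 47.4 CPM in I/R hearts and 273 ± 54.7 CPM in Sham hearts. Ankrd1 had a log2 fold change of -0.46 ± 0.21 in I/R against Sham, with an unadjusted p of 0.0457 and an adjusted p of 0.205 in edgeR. In DESeq2 the adjusted p was 0.0759. It was -0.38 ± 0.21 in I/R + ML264 against Sham (adjusted p = 0.472) and 0.08 ± 0.21 with ML264 set against I/R (adjusted p = 0.925), where the 95% interval of the fold was 0.773 to 1.45.

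**Figure D3:**
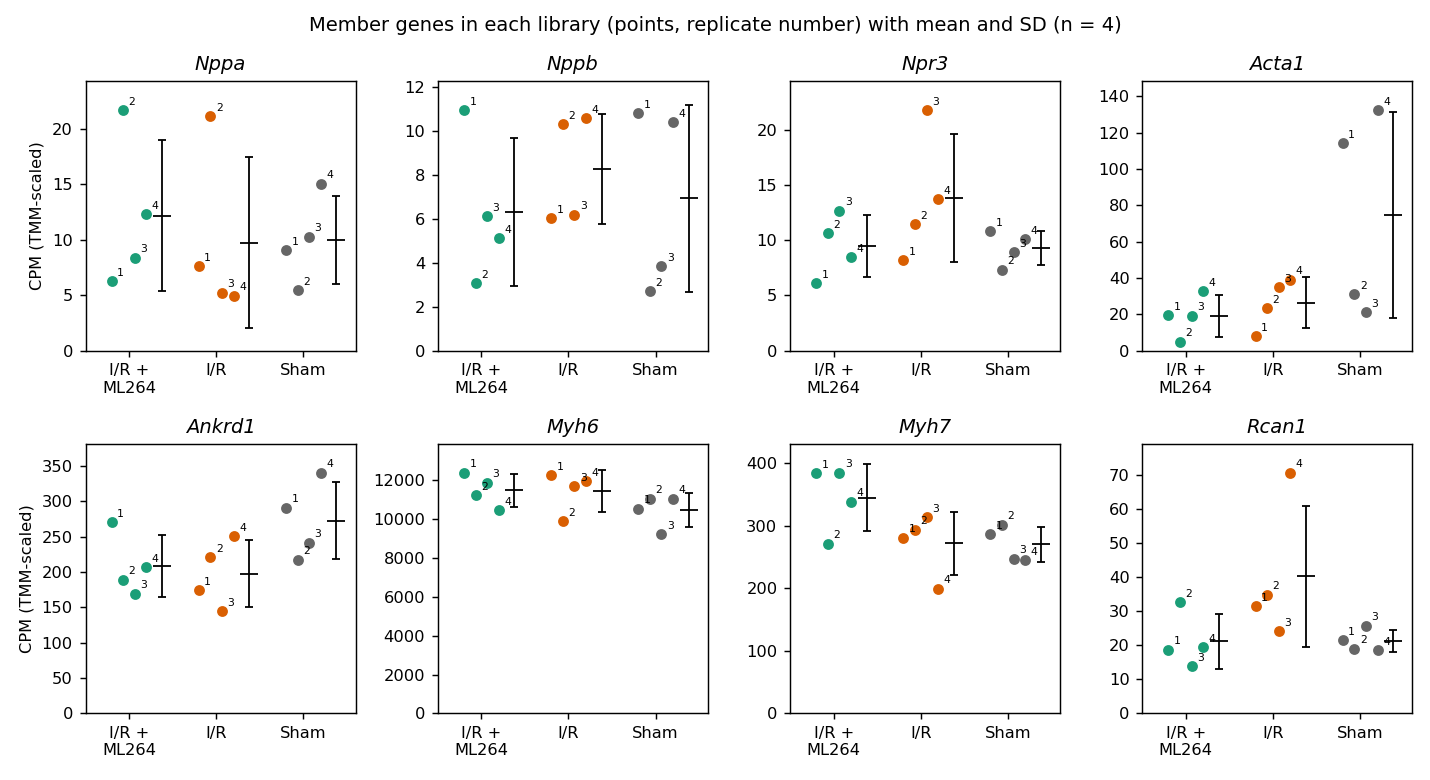
CPM (y axis, TMM-scaled, from 0) of the 8 genes in each library, with the replicate number beside each point and the group mean and SD (n = 4) as a cross with bars. Nppa shows 2 libraries above 20 CPM, Acta1 2 Sham libraries above 100 CPM, and Rcan1 1 I/R library at 70.6 CPM, and the 3 groups overlap in every panel.

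Of the 12 tested genes in the list of sarcomere genes that switch with age or load, 1 rose in I/R against Sham (8.33%, near the 7.75% of all genes tested), and the median log2 fold change was 0.07. It was Tnnt2, cardiac troponin T, at 5350 ± 712 CPM in I/R + ML264 hearts, 6110 ± 284 CPM in I/R hearts and 4800 ± 581 CPM in Sham hearts, a log2 fold change of 0.35 ± 0.10 in I/R against Sham (adjusted p = 0.0394). Tnnt2 lost this call in 7 of the 12 fits on 11 libraries (without each of Sham 1, 3 and 4 and I/R 1 to 4). It also lost it with upper-quartile factors (adjusted p = 0.0668), a non-robust spread (0.0509), the replicate block (0.0615), Ddx3y (0.0598) or Arntl (0.16) as a covariate, and in the libraries with Y-linked transcripts alone (0.125). The Tnnt2 log2 fold change was between 0.27 and 0.41 in these and all other settings.

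In the stretch and wall stress list, 4 of 19 tested genes passed the test in I/R against Sham (21.1%, beside 7.75% of all genes tested), where 3 rose and 1 fell, with a median log2 fold change of 0.15. The list was chosen with earlier results of these data known, so a share above that of all genes may come from the choice. Edn1, the gene of the vasoconstrictor endothelin-1, fell to 1.62 ± 0.440 CPM in I/R hearts, against 3.37 ± 0.415 CPM in Sham hearts, a log2 fold change of -1.06 ± 0.23 (adjusted p = 0.0108). I/R + ML264 hearts had 2.77 ± 0.562 CPM of Edn1. Endothelial cells are a main source of endothelin-1, and the 7 endothelial markers summed to 357 to 442 CPM in I/R + ML264 hearts, 365 to 405 CPM in I/R hearts and 423 to 514 CPM in Sham hearts, so that every I/R library was below every Sham library. The part of these markers in the Edn1 difference was not tested. Bag3, a co-chaperone that clears damaged sarcomere proteins, rose to 207 ± 10.9 CPM in I/R hearts, against 151 ± 22.4 CPM in Sham hearts (log2 fold change 0.46 ± 0.10, adjusted p = 0.0145). Fhl2, a LIM-domain protein of the sarcomere, rose to 102 ± 5.38 CPM in I/R hearts, against 77.9 ± 4.60 CPM in Sham hearts (log2 fold change 0.39 ± 0.09, adjusted p = 0.0162). The fourth was Xirp1, an actin-binding protein of the intercalated disc, named after its values were seen, at 142 ± 26.8 CPM in I/R hearts, against 71.7 ± 24.4 CPM in Sham hearts (log2 fold change 0.99 ± 0.23, adjusted p = 0.0275). Bag3 lost its call without Sham library 2 or 3, Fhl2 without Sham library 4, and Xirp1 without Sham library 2 or 4 or I/R library 1 or 4, with log2 fold changes over all settings of 0.38 to 0.55, 0.34 to 0.44 and 0.75 to 1.19. With Ddx3y as a covariate, with Arntl as a covariate and in the libraries with Y-linked transcripts alone, the adjusted p was 0.057, 0.0571 and 0.0631 for Bag3 and 0.0892, 0.0794 and 0.291 for Xirp1, all short of the threshold. Xirp1 also lost its call with all genes unfiltered (0.0547) and with only the 2 groups in the fit (0.0773), and Fhl2 with Arntl as a covariate (0.065). Edn1 kept its call in all 12 fits without 1 library, and over the libraries with Y-linked transcripts alone its log2 fold change was -0.83 (adjusted p = 0.0922).

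Among cardiac transcriptional regulators, 2 of 22 tested genes rose in I/R against Sham (9.09%, near the 7.75% of all genes tested), with a list median of 0.09. Gata6, a GATA factor, was at 25.4 ± 5.12 CPM in I/R hearts, against 15.0 ± 3.05 CPM in Sham hearts (log2 fold change 0.76 ± 0.16, adjusted p = 0.0091), and the call held whichever library was left out. In the libraries with Y-linked transcripts alone the log2 fold change of Gata6 was 0.59 and no longer called (adjusted p = 0.0648). Tbx20, a T-box factor of cardiomyocytes, was at 164 ± 14.9 CPM in I/R hearts, against 129 ± 9.57 CPM in Sham hearts (log2 fold change 0.35 ± 0.09, adjusted p = 0.028). Tbx20 lost its call without Sham library 1, 3 or 4 or I/R library 1 or 3, with upper-quartile factors (adjusted p = 0.0564), with Ddx3y as a covariate (0.108) and in the libraries with Y-linked transcripts alone (0.0853). Its log2 fold changes were 0.28 to 0.46 over all settings. Neither comparison of I/R + ML264 hearts called a gene of these lists (0 in each). The share over all genes tested was 0.0502% against I/R and 0.288% against Sham.

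The myosin heavy chain genes lie side by side on chromosome 14, Myh6 at chr14:54941921-54966927 and Myh7 at chr14:54970684-54994626, both on the minus strand. Their transcripts are alike: 30.8% of the 31-base words of Myh6 and 23.1% of those of Myh7 occur in other genes, almost all of them in the partner. The division of reads between the pair is therefore uncertain. Myh6 had 233079 to 349639 estimated counts per library and Myh7 5333 to 10825. Misplaced reads would thus weigh far more on Myh7 and on the Myh7 share than on Myh6. Reads of the antisense genes Gm49130 (over Myh6) and Mhrt, Gm29015 and Gm31251 (over Myh7), as of Gm13054 (over Nppa) and Gm5144 (over Npr3), cannot be told apart from those of their partners, since the library kit does not mark strand.

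Myh6 was the steadiest member, at 12400, 11240, 11880 and 10450 CPM in I/R + ML264 libraries 1 to 4, at 12260, 9885, 11700 and 11970 CPM in I/R libraries and at 10540, 11050, 9218 and 11050 CPM in Sham libraries. The highest Myh6 level was 1.35 times the lowest over the 12 libraries. For Myh6 the log2 fold change was 0.13 ± 0.09 in I/R against Sham (adjusted p = 0.398), 0.01 ± 0.09 with ML264 set against I/R (adjusted p = 0.989) and 0.14 ± 0.09 in I/R + ML264 against Sham (adjusted p = 0.544). The 95% interval of the Myh6 fold in I/R + ML264 against I/R ran from 0.884 to 1.14, the tightest of any member.

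Myh7, the fetal and slow isoform, was at 384, 272, 385 and 338 CPM in I/R + ML264 libraries 1 to 4, at 281, 294, 314 and 200 CPM in I/R libraries and at 287, 302, 247 and 245 CPM in Sham libraries. I/R + ML264 libraries 1, 3 and 4 lay above all I/R and all Sham libraries, and library 2 lay within both. The mean was 345 ± 53.4 CPM in I/R + ML264 hearts, 272 ± 50.1 CPM in I/R hearts and 270 ± 28.6 CPM in Sham hearts. Myh7 had a log2 fold change of 0.34 ± 0.14 in I/R + ML264 against I/R (unadjusted p = 0.0296, adjusted p = 0.42 in edgeR) and 0.35 ± 0.14 in I/R + ML264 against Sham (unadjusted p = 0.0263, adjusted p = 0.305). In I/R against Sham it was 0.01 ± 0.14 (adjusted p = 0.98), with a 95% interval of the fold from 0.816 to 1.24.

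The share of Myh7 in the summed Myh6 and Myh7 counts, which does not depend on library size, was 3%, 2.36%, 3.14% and 3.13% in I/R + ML264 libraries 1 to 4, 2.24%, 2.88%, 2.61% and 1.64% in I/R libraries and 2.65%, 2.66%, 2.61% and 2.17% in Sham libraries. The Myh7 share averaged 2.91% ± 0.372 in I/R + ML264 hearts, 2.34% ± 0.538 in I/R hearts and 2.52% ± 0.238 in Sham hearts (SD, n = 4). The difference was 0.565 points in I/R + ML264 against I/R (exact two-sided permutation p = 0.143, adjusted over 3 comparisons 0.214). Without I/R library 4, which had the lowest share, it was 0.33 points, and the Myh7 log2 fold change was 0.22 in place of 0.34. The difference was 0.385 points in I/R + ML264 against Sham (exact permutation p = 0.114, adjusted 0.214). In I/R against Sham it was -0.179 points (exact permutation p = 0.629, adjusted 0.629), and 0.225 points over the libraries with Y-linked transcripts. The smallest p that 4 libraries against 4 allow is 0.0286. Per kilobase the shares were 2.86% ± 0.365, 2.30% ± 0.528 and 2.48% ± 0.233 in I/R + ML264, I/R and Sham hearts.

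**Figure D4:**
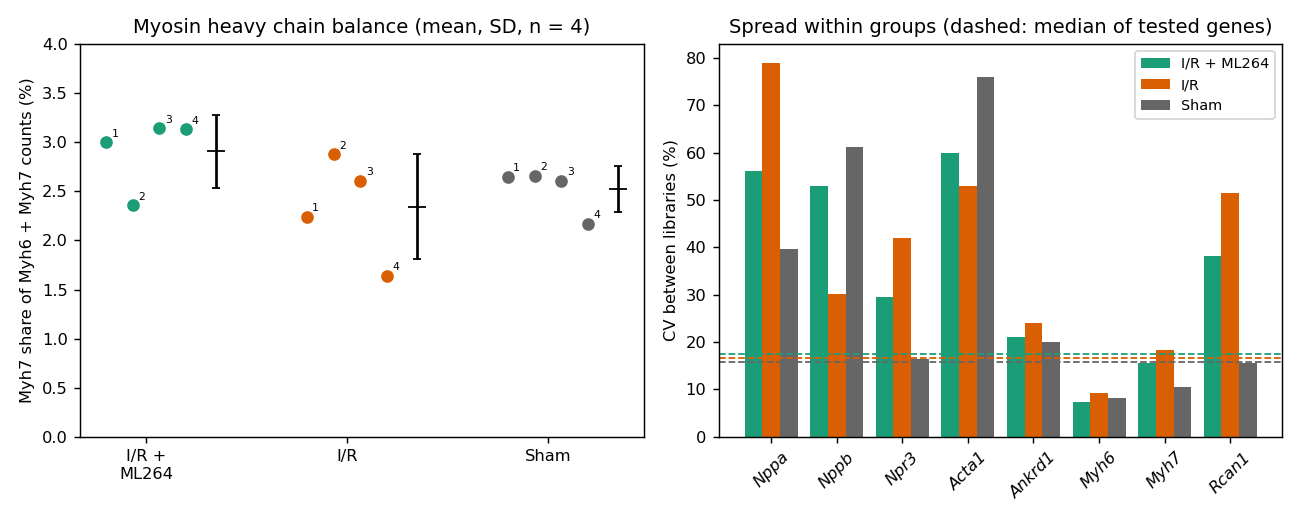
Left, the Myh7 share of Myh6 plus Myh7 counts (y axis, %) in each library with its replicate number, and the group mean and SD (n = 4). Right, the coefficient of variation between libraries (y axis, %) of each member in each group, with dashed lines at the median of all genes tested. In the left panel 3 of the 4 I/R + ML264 libraries have a share of 3% or more, and Nppa, Nppb and Acta1 stand above the dashed lines in all groups while Myh6 stands under them.

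The members differed in their spread between libraries. The coefficient of variation between libraries of 1 group was 56.1%, 79.0% and 39.7% for Nppa in I/R + ML264, I/R and Sham hearts, 53.0%, 30.2% and 61.2% for Nppb and 59.9%, 53.0% and 75.9% for Acta1. The median gene had 17.4%, 16.7% and 15.8% in the same groups, and 97.9% of genes tested varied less than Nppa did among I/R hearts. The genes tested were not matched to the members for level. At the other end, Myh6 varied by 7.32%, 9.35% and 8.27%. Npr3 varied by 29.6%, 42.0% and 16.5% and Rcan1 by 38.1%, 51.5% and 15.5% in I/R + ML264, I/R and Sham hearts, above the median gene in the first 2 groups and near it in Sham hearts. Ankrd1 varied by 21%, 24% and 20.1% and Myh7 by 15.5%, 18.4% and 10.6% in the same order of groups, between these ends. Differences in spread between groups were not tested.

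Rcan1 (chr16:92391953-92470867, minus strand) had the lowest unadjusted p-value among the members in I/R against Sham. Rcan1 was at 18.7, 32.6, 13.8 and 19.5 CPM in I/R + ML264 libraries 1 to 4, at 31.4, 34.8, 24.1 and 70.6 CPM in I/R libraries and at 21.4, 19.0, 25.7 and 18.5 CPM in Sham libraries. I/R libraries 1, 2 and 4 were above every Sham library, I/R library 3 was within the Sham range, and I/R library 4 was the highest of the 12. The mean was 21.2 ± 8.06 CPM in I/R + ML264 hearts, 40.2 ± 20.7 CPM in I/R hearts and 21.2 ± 3.29 CPM in Sham hearts. Rcan1 had a log2 fold change of 0.93 ± 0.36 in I/R against Sham (unadjusted p = 0.0265, adjusted p = 0.152 in edgeR), with a 95% interval of the fold from 1.10 to 3.30. Between I/R + ML264 and I/R it was -0.92 ± 0.35 (unadjusted p = 0.0268, adjusted p = 0.406), and the interval of the fold was 0.304 to 0.913. These comparisons share the I/R libraries, and without I/R library 4 the log2 fold changes were 0.51 (adjusted p = 0.299) and -0.51 (adjusted p = 0.618). For I/R + ML264 against Sham it was 0.00 ± 0.36 (adjusted p = 0.998), with an interval from 0.578 to 1.74.

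Rcan1 has 2 transcripts in the table. Rcan1-201 starts at the internal first exon, at base 92400077, and Rcan1-202 at the upstream first exon, at base 92466146. The value named for Rcan1-201 was 62.5, 63.0, 285 and 46.2 estimated counts in I/R + ML264 libraries 1 to 4, 771, 56.6, 574 and 19.8 in I/R libraries and 35.3, 441, 68.6 and 53.1 in Sham libraries. The value named for Rcan1-202 was 466, 948, 69.1 and 396 estimated counts in I/R + ML264 libraries, 86.8, 827, 25.8 and 1866 in I/R libraries and 438, 84.2, 671 and 472 in Sham libraries. Rcan1-201 thus held the larger value in I/R + ML264 library 3, I/R libraries 1 and 3 and Sham library 2, and Rcan1-202 in the other 8.

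This exchange was not particular to Rcan1. Among 798 genes with 2 transcripts in the table and at least 100 counts in every library, a pair of libraries had the same leading transcript in 50.2% of cases, where unrelated names would give 50%, while the share of the leading value held steady at 88.2% with a mean SD of 3.86 points between libraries. With 3 transcripts the agreement was 33.3% over 773 genes, and with 4 it was 25.0% over 814 genes, again the level of unrelated names. Among the members, the value that held nearly all Myh6 counts stood under 4 different transcript names across the 12 libraries. The transcript names in the deposited table therefore cannot be followed from library to library, and sums per gene are not touched by this.

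**Figure D5:**
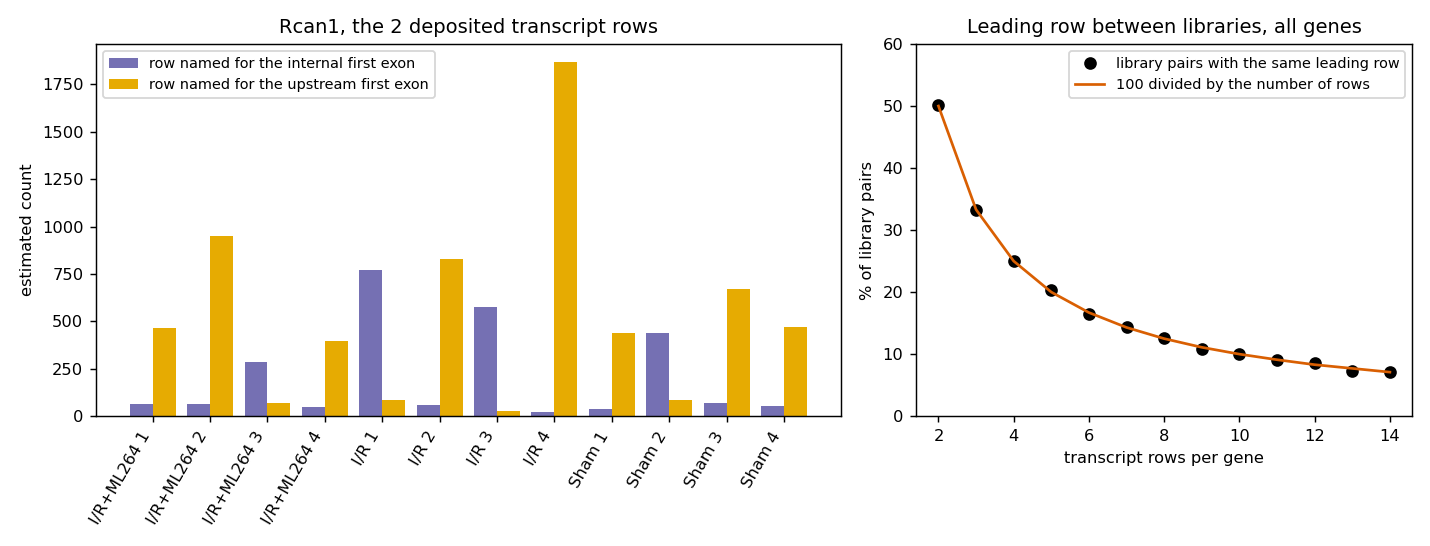
Left, estimated counts (y axis) of the 2 Rcan1 transcripts under their deposited names in each of the 12 libraries, in which the larger value changes name. Right, the percentage of library pairs with the same leading transcript (y axis) against the number of transcripts of a gene (x axis), as points, beside the line of 100 divided by that number, on which the points lie.

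Under the deposited names, the share of Rcan1-201 in Rcan1 averaged 27.2% ± 35.6 in I/R + ML264 hearts, 48.3% ± 51.5 in I/R hearts and 27.7% ± 37.5 in Sham hearts (SD, n = 4), and the exact permutation p was 0.514 in I/R + ML264 against I/R, 0.886 in I/R + ML264 against Sham and 0.629 in I/R against Sham (adjusted 0.886 each). Since the names do not hold, this test says nothing about the form of Rcan1. A fit over all 52965 transcripts tested called 0 of them in each comparison in edgeR, with 3160, 3112 and 3050 at an unadjusted p under 0.05 in I/R against Sham, I/R + ML264 against I/R and I/R + ML264 against Sham. DESeq2 called 980, 897 and 840 transcripts in the same comparisons and 0 of the 2 Rcan1 transcripts, a fit to which the same limit applies.

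The smaller of the 2 Rcan1 values, whichever name it carried, was also expressed as a share of Rcan1, an alternative chosen after the values were seen. Since the names do not hold, the smaller value need not be the same form in every library, and no test of its share is given. It was 11.8%, 6.23%, 19.5% and 10.4% in I/R + ML264 libraries 1 to 4, 10.1%, 6.40%, 4.30% and 1.05% in I/R libraries and 7.46%, 16.0%, 9.28% and 10.1% in Sham libraries. I/R library 4, with the highest Rcan1 level, had the lowest share, and the groups overlapped. The mean was 12% ± 5.54 in I/R + ML264 hearts, 5.47% ± 3.80 in I/R hearts and 10.7% ± 3.71 in Sham hearts. Which of the 2 forms held the smaller value cannot be told from the table.

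In the calcineurin and NFAT list, 1 of 17 tested genes passed the test in I/R against Sham (5.88%, below the 7.75% of all genes tested), and the list median was -0.01. It was Rcan3, a paralog of Rcan1, which fell to 7.67 ± 0.925 CPM in I/R hearts, against 10.3 ± 1.18 CPM in Sham hearts (log2 fold change -0.43 ± 0.13, adjusted p = 0.0471). I/R + ML264 hearts had 7.85 ± 0.467 CPM. On 11 libraries the call was lost in 10 of 12 fits, all but those without I/R library 1 and without I/R + ML264 library 2. It was also lost with all genes unfiltered (adjusted p = 0.0803), with only the 2 groups in the fit (0.0574), with the replicate block (0.0653), with Ddx3y (0.093) or Arntl (0.143) as a covariate and in the libraries with Y-linked transcripts alone (0.0852). The Rcan3 log2 fold changes were -0.53 to -0.35 over all settings. Both comparisons of I/R + ML264 hearts called 0 of the 17, beside 0.0502% of all genes tested against I/R and 0.288% against Sham.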

How the data were processed

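The 12 libraries were grouped by their titles into I/R + ML264, I/R and Sham. The authors deposited a table of raw estimated counts for each transcript, made with kallisto and FastQC per the submitters' processing notes (GRCm38, mm10), with versions and annotation release not given in the sources used here. Per the labels' protocols, Nextera XT libraries were made from 1 ng of cDNA. Of the deposited estimated counts, 45.8% were not whole. Transcript values were added up under each gene symbol and rounded to whole numbers, which also removes the unordered transcript names. Genes passing filterByExpr (minimum 10 counts, 15952 genes) entered 1 model of the 12 libraries in edgeR 4.0.16 (R 4.3.3, TMM, robust quasi-likelihood F-test, biological coefficient of variation 0.205). A gene is called when its p, adjusted by Benjamini-Hochberg, is under 0.05. Fold changes carry the SE, and intervals are at 95%. Depth (22.26 to 29.93 M) limits precision at the lowest members to 75 to 309 counts per library for Nppb. Shares were compared by exact two-sided permutation.

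The members, the 5 pathway lists and the 8 marker lists were chosen with earlier results of these data known. Named list genes are up to 3 called ones per list by smallest adjusted p. Genes most like a called member were to be named, and no member was called. Shared 31-base words were counted against GENCODE M21 transcripts (GRCm38), and genes over 25% were marked as uncertain. This mark does not weigh the levels of the genes that share words. Alternatives were upper-quartile or RLE factors, DESeq2 1.42.0 (Wald test), all genes unfiltered, 1 CPM in 4 libraries, a spread without robust fitting, only the groups compared, a replicate block, mitochondrially encoded genes left out, Ddx3y or Arntl as a covariate, only libraries with Y-linked transcripts, and leaving out each library. The code was tested on simulated data.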

Additional observations from a re-analysis of the deposited data

Results flagged for a closer look

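Nppa stood at 21.1 CPM in I/R library 2, far from the other 3 I/R libraries at 4.94 to 7.62 CPM. Without it the log2 fold change of Nppa in I/R against Sham was -0.75 in place of -0.04, and in I/R + ML264 against I/R 1.04 in place of 0.33. The Myh7 share of Myh6 plus Myh7 was 2.17% in Sham library 4, below the other 3 Sham libraries at 2.61% to 2.66%, and without it the difference of I/R against Sham was -0.297 in place of -0.179 points. Of 30 groups of 4 libraries examined these 2 had such a far sample, and chance gives about 1 in 20. The cause of either value was not tested.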

How the results depend on the processing

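Each of the 12 alternatives in the fit and 12 fits without 1 library gave 0 of 8 members called in each comparison, and 0 of the 2 Rcan1 transcripts. Of 576 member fold changes under these alternatives, 533 kept their sign and 43 turned, all of them uncalled. The cause of the turns was not tested. For Myh7 in I/R against Sham the log2 fold change was -0.033 with upper-quartile factors, -0.000277 at 1 CPM and -0.00459 with the replicate block. For Nppa it was 0.11 with Ddx3y as a covariate and 0.403 in Y-linked libraries only, where I/R + ML264 against I/R gave -0.353. For Nppb in I/R against Sham it was -0.126 with Arntl. For Npr3 in I/R + ML264 against Sham it was -0.0266 with the block and -0.34 with Arntl. For Rcan1 in that comparison, near 0 throughout, it was -1.6e-05 in DESeq2, -0.0205 with upper-quartile factors, -0.000989 unfiltered, -0.00298 at 1 CPM, -0.0666 with the block, -0.352 with Ddx3y, -0.0911 with Arntl and -0.347 in Y-linked libraries.

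Leaving out 1 library gave, in I/R against Sham, -0.0664 to 0.131 for Myh7, -0.748 to 0.234 for Nppa and -0.0162 to 0.549 for Nppb. In I/R + ML264 against I/R it gave -0.0679 to 0.218 for Ankrd1, -0.0599 to 0.0476 for Myh6 and -0.114 to 1.04 for Nppa. In I/R + ML264 against Sham it gave -0.156 to 0.56 for Nppa, -0.543 to 0.157 for Nppb, -0.142 to 0.19 for Npr3 and -0.286 to 0.16 for Rcan1. The Myh7 share in I/R against Sham differed by 0.225 points in Y-linked libraries and by -0.359 to 0.0555 points without 1 library. The Rcan1-201 share in I/R + ML264 against Sham differed by 17.8 points in Y-linked libraries and -18.2 to 18.3 points without 1 library. By the smaller Rcan1 value, which need not be the same form in every library, the differences were -5.25 points in I/R against Sham, 6.54 in I/R + ML264 against I/R and 1.29 in I/R + ML264 against Sham.

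Genes called in I/R against Sham (1236) numbered 546 with Ddx3y, 634 with Arntl, 553 in Y-linked libraries and 659 to 1485 without 1 library. In I/R + ML264 against I/R (8) they numbered 151 in DESeq2, 22 unfiltered, 2 with a non-robust spread, 1 with the block, 2 in Y-linked libraries and 0 to 85 without 1 library. In I/R + ML264 against Sham (46) they numbered 370 in DESeq2, 78 unfiltered, 72 non-robust, 27 with only these groups, 19 with the block, 12 with Ddx3y, 12 with Arntl, 27 in Y-linked libraries and 9 to 101 without 1 library. Same-numbered libraries correlated weakly, at -0.11 to 0.097 over 12 pairs, and 3 matched their own number best. All 3 were in I/R + ML264 against I/R (replicates 1, 3 and 4, at 0.097, 0.06 and 0.063). Whether the numbers pair samples in that comparison cannot be settled from these values. With the block, 1009 genes were called in I/R against Sham.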

Other observations

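Markers of cell types in the same hearts, listed with earlier results known, were called in a few cases in I/R against Sham. Of all genes tested, 7.75% were called in this comparison. The share was 20% of tested cardiomyocyte, 14.3% of endothelial, 14.3% of smooth muscle and pericyte and 40% of neutrophil markers. These lists are short, so 1 or 2 calls in a list say little about its cell type. The genes named here were chosen after their values were seen. Of 10 cardiomyocyte markers 2 rose, Tnnt2 and Actn2, the alpha-actinin of the Z-disc, at 546 ± 16.9 CPM in I/R + ML264 hearts, 614 ± 33.7 CPM in I/R hearts and 465 ± 48.5 CPM in Sham hearts (log2 fold change 0.40 ± 0.08 in I/R against Sham, edgeR adjusted p = 0.00594). Of 7 endothelial markers 1 fell, Kdr, the main VEGF receptor, at 115 ± 27.2 CPM in I/R + ML264 hearts, 90.3 ± 14.5 CPM in I/R hearts and 155 ± 29.1 CPM in Sham hearts (log2 fold change -0.78 ± 0.19, adjusted p = 0.0323). The summed endothelial markers were at 357 to 442 CPM in I/R + ML264 hearts, 365 to 405 CPM in I/R hearts and 423 to 514 CPM in Sham hearts.

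Of 7 smooth muscle and pericyte markers 1 fell, Pdgfrb, at 38.1 ± 2.33, 32.9 ± 3.36 and 44.7 ± 2.62 CPM in I/R + ML264, I/R and Sham hearts (log2 fold change -0.44 ± 0.09, adjusted p = 0.00631). Of the neutrophil markers 5 of 8 were tested and 2 rose, Clec4e and Clec4d, both C-type lectins. Clec4e was at 0.886 ± 0.437, 1.73 ± 0.666 and 0.483 ± 0.215 CPM in I/R + ML264, I/R and Sham hearts (log2 fold change 1.85 ± 0.43, adjusted p = 0.0159), and Clec4d at 0.416 ± 0.437, 0.944 ± 0.218 and 0.0453 ± 0.0905 CPM (adjusted p = 0.021). The neutrophil markers summed to 5.43 to 20.3 CPM in I/R + ML264 hearts, 8.50 to 19.4 CPM in I/R hearts and 5.14 to 7.57 CPM in Sham hearts. Of the 8 fibroblast, 4 endocardial, 2 tested atrial and 1 tested skeletal muscle markers, 0 were called in any comparison. Actn2 kept its call in every alternative run. Pdgfrb lost it in the libraries with Y-linked transcripts alone (adjusted p = 0.0634), Clec4e with Arntl as a covariate (0.0944) or on leaving out Sham library 2 (0.0512) or I/R library 4 (0.0533), and Clec4d with Ddx3y (0.0525) or Arntl (0.0739) and without Sham library 1, 3 or 4 (0.0515 to 0.0657). Kdr lost it in 6 of the 12 fits without 1 library (without Sham 2, 3 or 4 and I/R 1, 3 or 4), with all genes unfiltered (0.0774), with the replicate block (0.0817), with Ddx3y (0.103) or Arntl (0.145) and in the libraries with Y-linked transcripts alone (0.0534). In I/R + ML264 against I/R and against Sham, 0 markers of any list were called, beside 0.0502% and 0.288% of all genes tested.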
